A study of Mus musculus with 2 samples.

Results

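Tight junction and epithelial adhesion genes are described here in single testis cells, as a set of 9 genes: the claudins Cldn3, Cldn5 and Cldn11, the MARVEL proteins Ocln and Marveld3, the adaptor Tjp1, the junctional immunoglobulin proteins F11r and Jam3, and Epcam. These members were taken by symbol, each matched 1 row, and they are 9 of the 31053 genes measured. The libraries are 10x Genomics droplet libraries, 1 from the testis of Igf2bp1 knockout (KO) mice and 1 from the testis of wild type mice, both at 8 months of age. The design text calls the knockout conditional and speaks of 2 mice, and the title names spermatogenesis and its dependence on age as the question. The sources used here do not give the Cre line, the deleted exons, the strain or how many animals stand behind each library, so each genotype counts as 1 sample.

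Tight junctions seal the space between neighbouring cells of an epithelium: claudins and occludin form the strands in the membrane, and ZO proteins such as the product of Tjp1 tie the strands to actin. In the testis, strands between neighbouring Sertoli cells form the blood-testis barrier, which germ cells cross as they enter meiosis. EpCAM is a homophilic adhesion molecule of epithelia that also marks spermatogonia in mice.

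The KO library held 98033324 UMIs (unique molecular identifiers, counted molecules) in 17968 barcodes, and the wild type library 121257944 UMIs in 17362 barcodes. Of the kept barcodes, 3666 KO barcodes (20.7%) and 5147 wild type barcodes (30.3%) fell into clusters that could be named from markers. Class names are shorthand for likeness to that class. All 14 spermatogonial markers had at least 1 UMI in the spermatogonia of each library. Of these, 12 in KO (not Id4 and Etv5) and 13 in wild type (not Id4) lay above their level over all kept barcodes. Sertoli cells had UMIs of all 15 of their markers in KO and of 14, without Fshr, in wild type, each above that level. Another 8296 KO and 11537 wild type barcodes were close to free RNA, and 5741 KO and 318 wild type barcodes stayed unnamed as mixed. Some mixed clusters carried markers of another compartment. Somatic clusters were also set aside where protamine UMIs per barcode passed 3 times those of the barcodes with the fewest UMIs. Cluster 22, with 30 KO and 188 wild type barcodes, was set aside for a low elongating spermatid score. The targeted gene Igf2bp1 stood at 21 CPM (UMIs of the gene per 1000000 UMIs of the class; exact Poisson 95% interval 12.2 to 33.6) in KO spermatogonia and at 48.4 CPM (39.5 to 58.8) in wild type spermatogonia. With 1 library per genotype no test of the genotypes is possible: every interval below covers counting error only, and variation between animals cannot be told apart from the difference between the libraries.

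The 9 genes fell into different compartments in both libraries. Cldn11 was a Sertoli cell gene, and F11r was highest in somatic cells. Among germ classes and the whole Sertoli class, Epcam and Tjp1 were highest in spermatogonia and early spermatocytes. Jam3 was spread over germ and Sertoli cells. In a small deeper Sertoli cluster, of 18 KO and 7 wild type cells, Tjp1 stood at 106 CPM in KO and 93.4 CPM in wild type. Jam3 stood there at 114 CPM in KO and 53.4 CPM in wild type, higher than in any germ class, the wild type value from 4 UMIs. Cldn5 lay mostly in unnamed clusters in the KO library (88.6% of its UMIs) and mostly in germ classes in the wild type library (68.6%). The gene with the most UMIs behind a difference between the libraries was Epcam, which was lower in KO late spermatocytes and KO round spermatids. The round spermatid difference lay in cluster 8, most of whose barcodes a finer clustering placed among late spermatocytes. Cldn11, Tjp1 and Jam3 gave ratios near 1 in the classes where they were above free RNA in both libraries. For Cldn11 that class was Sertoli cells, whose clusters leaned in opposite directions. Droplets also carry free RNA from broken cells. Its level was taken as that in the tenth of each library's barcodes with the fewest UMIs, called the lowest decile here, and a level whose interval was not above it is said to be at or below free RNA. The counting error of the free RNA level itself is not part of this rule.

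**Figure D1:**
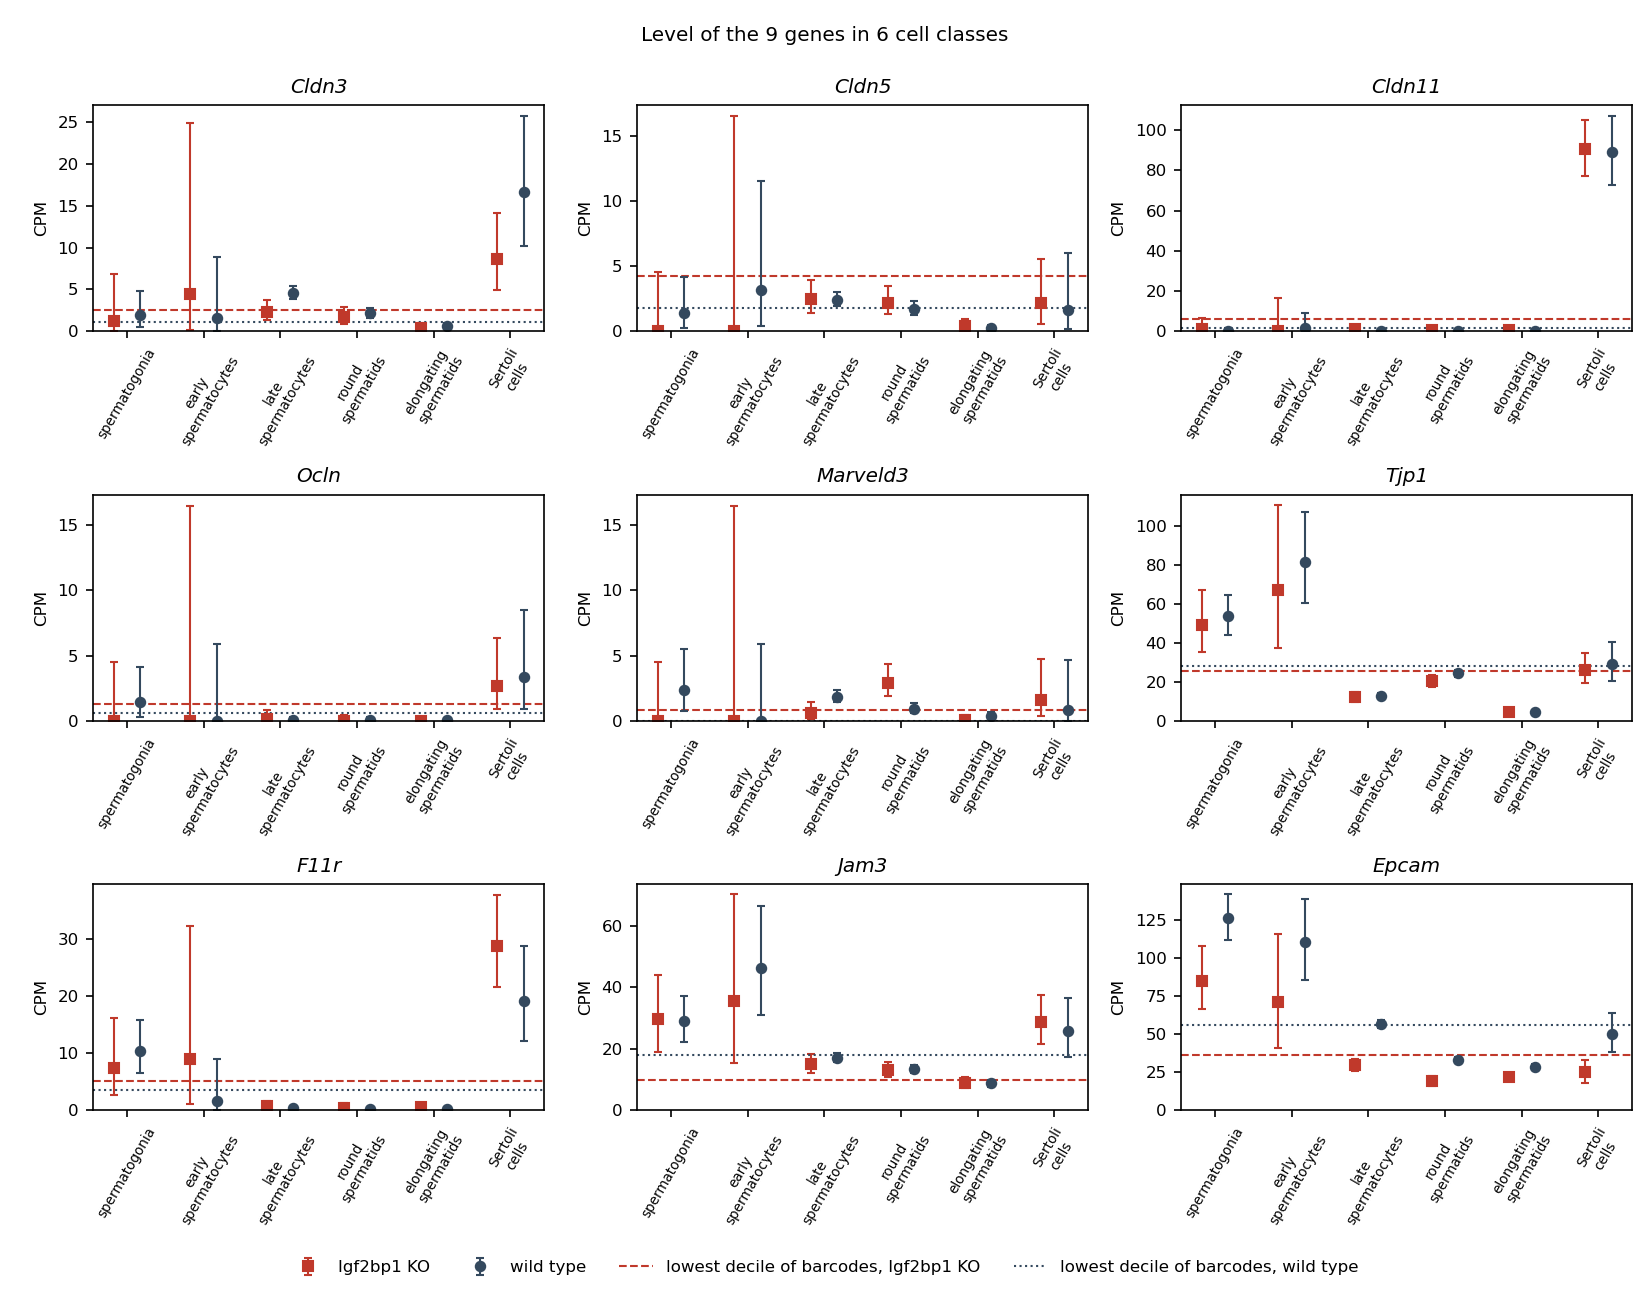
Level of each gene in CPM in 6 cell classes of the Igf2bp1 KO library (squares) and the wild type library (circles), with exact Poisson 95% intervals; the dashed and dotted lines give the level in the lowest decile of barcodes. Cldn11 stands at 90.5 CPM in KO Sertoli cells and 89 CPM in wild type Sertoli cells and near 0 in the other classes, while Epcam is highest in spermatogonia and early spermatocytes and lower in KO than in wild type in all 6 classes; the 36 KO early spermatocytes give wide intervals.

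A gene was called higher or lower in the KO library where the ratio of CPM was at least 1.5-fold and its exact conditional binomial 95% interval left out 1, among genes with at least 20 UMIs over both libraries. Ratios were taken in the 5 classes with at least 50 cells in each library. In spermatogonia (106 KO and 190 wild type cells), 0 of the 4 measured members were called, where 6.2% of all genes tested were called higher and 7.51% lower. In late spermatocytes (377 KO and 1355 wild type cells), 1 of 8 members was higher and 3 were lower, against 5.23% and 3.18% of all genes. In round spermatids (389 KO and 866 wild type cells), 1 of 6 was higher and 1 was lower, against 4.53% and 2.57% of all genes. In elongating spermatids (845 KO and 1814 wild type cells), 0 of 4 were called, against 5.75% higher and 1.3% lower among all genes. In Sertoli cells (907 KO and 750 wild type cells), 0 of 6 were higher and 1 was lower, against 3.34% and 2.55% of all genes.

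The calls were therefore Epcam in late spermatocytes, round spermatids and Sertoli cells, Cldn3 in late spermatocytes, Marveld3 in late spermatocytes and round spermatids, and Cldn11 in late spermatocytes. The median log2 ratio of the measured members was -0.31 in spermatogonia, -0.15 in late spermatocytes, -0.15 in round spermatids, -0.17 in elongating spermatids and -0.07 in Sertoli cells. Over all genes tested the medians were 0.02, 0.03, 0.02, 0.06 and 0.04 in the same order of classes. These counts are too small to set the members apart from other genes, and the members that did not reach 20 UMIs in a class are not counted there.

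**Figure D2:**
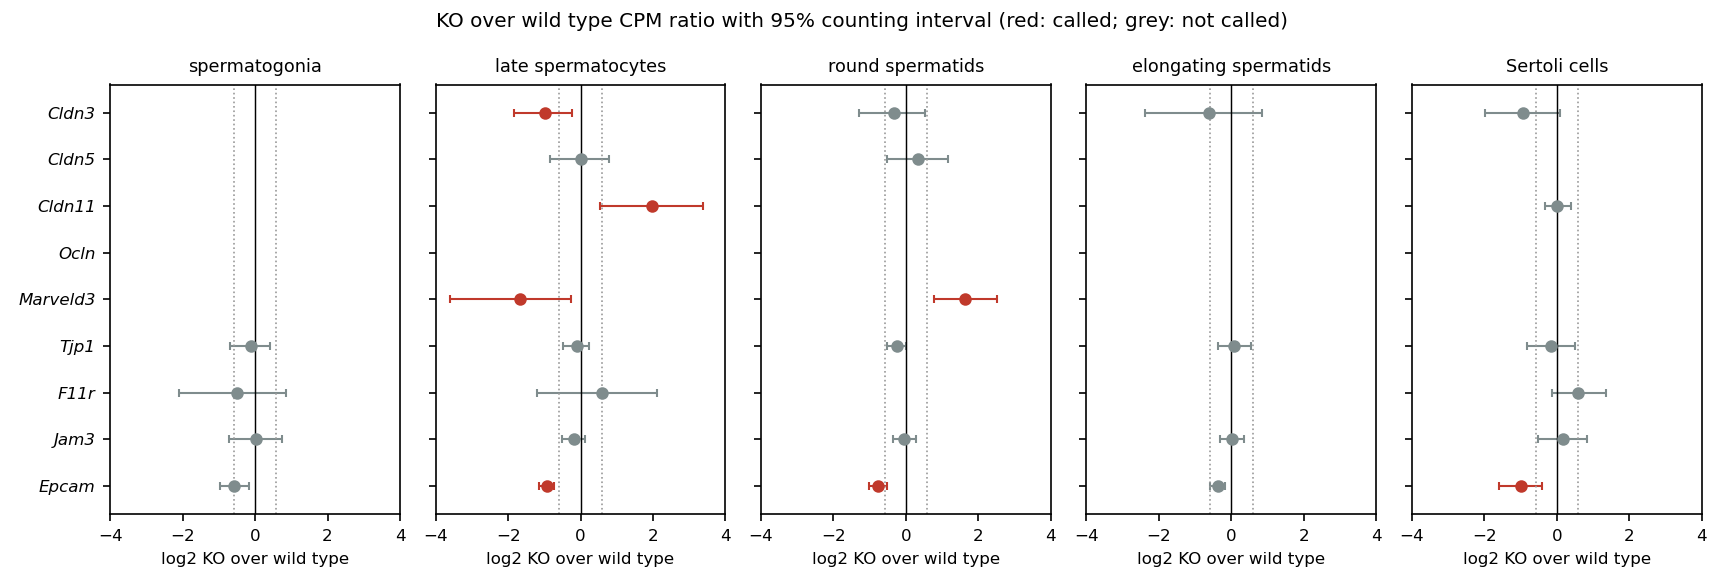
Log2 ratio of CPM, KO over wild type, for each gene with at least 20 UMIs in a class, with its 95% counting interval; dotted lines mark 1.5-fold, red points were called and grey points were not. Epcam lies left of 0 in all 5 classes, from -0.38 in elongating spermatids to -0.93 in late spermatocytes and lower still in Sertoli cells, while Jam3 and Tjp1 stay within 1.5-fold in all 5.

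Cldn11, on chromosome 3 (31149920 to 31164324, plus strand, GRCm38), encodes claudin-11, the claudin without which Sertoli cell tight junction strands do not form in mice. Its promoter window is shown because it is the member most restricted to 1 class here. The window, chr3:31149670-31149969 in GRCm38.p6 from RefSeq, runs from 250 bases before to 50 bases after the annotated start on the gene's strand, and capitals mark the motif GGGCGG, a GC box core.
Cldn11: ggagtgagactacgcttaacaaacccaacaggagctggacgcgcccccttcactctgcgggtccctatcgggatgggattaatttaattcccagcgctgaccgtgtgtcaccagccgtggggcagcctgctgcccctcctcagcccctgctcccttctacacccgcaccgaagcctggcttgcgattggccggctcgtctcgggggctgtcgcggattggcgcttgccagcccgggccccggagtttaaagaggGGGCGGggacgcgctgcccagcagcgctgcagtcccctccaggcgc

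Cldn11 stood at 90.5 CPM (77.3 to 105) in KO Sertoli cells, from 167 UMIs, and at 89 CPM (72.9 to 107) in wild type Sertoli cells, from 107 UMIs. The intervals overlapped almost fully, and the log2 ratio was 0.02 (-0.33 to 0.39). A UMI was found in 92 of 907 KO Sertoli cells (10.1%; Clopper-Pearson 95% interval 8.26 to 12.3) at a median depth of 1718 UMIs, and in 66 of 750 wild type Sertoli cells (8.8%; 6.87 to 11.1) at 1314 UMIs. After thinning every cell to 1000 UMIs the shares were 4.3% in KO and 5.44% in wild type. In Leydig cells, steroid-making cells outside the barrier, a UMI was found in 9 of 369 KO cells (2.44%) at 6059 UMIs and in 0 of 43 wild type cells at 6969 UMIs, which allows a share of up to 6.98%. Sertoli cells were the 1 named class above free RNA for Cldn11 in both libraries, where free RNA held 6.39 CPM in KO and 1.76 CPM in wild type. Over all kept barcodes Cldn11 stood at 9.66 CPM in KO and 1.22 CPM in wild type, and 69.7% of its UMIs in KO and 3.4% in wild type lay in unnamed mixed barcodes.

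Sertoli cells came as a shallow cluster (number 5) of 889 KO and 743 wild type barcodes and a deeper one (number 32) of 18 KO and 7 wild type cells. The share of protamine and transition protein UMIs, which are transcribed in spermatids, was 86.8% of the free RNA share in KO Sertoli cells and 79.3% of it in wild type Sertoli cells. In the deeper cluster Cldn11 was found in all 18 KO cells, with 1 to 11 UMIs per cell and a median of 4, and in all 7 wild type cells, with 2 to 8 UMIs and a median of 4. That gave 678 CPM (540.3 to 841) in KO and 440.3 CPM (303 to 618) in wild type, with overlapping intervals. The log2 ratio in the deeper cluster was 0.62 (0.03 to 1.25), beyond 1.5-fold. The interval of that ratio left out equal levels, but the cluster has fewer cells than the minimum set for a ratio. In the shallow cluster Cldn11 had 48.7 CPM in KO and 65.6 CPM in wild type, log2 -0.43 (-0.90 to 0.04). The ratio over all Sertoli cells thus joined clusters that leaned in opposite directions. Cldn11 was itself among the 10 leading genes of the deeper cluster, although it was left out of the genes used for clustering. Both Cldn11 and F11r were found in 13 of the 18 KO cells and 4 of the 7 wild type cells, and a cell held a median of 3.5 of the 9 genes in KO and 4 in wild type.

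**Figure D3:**
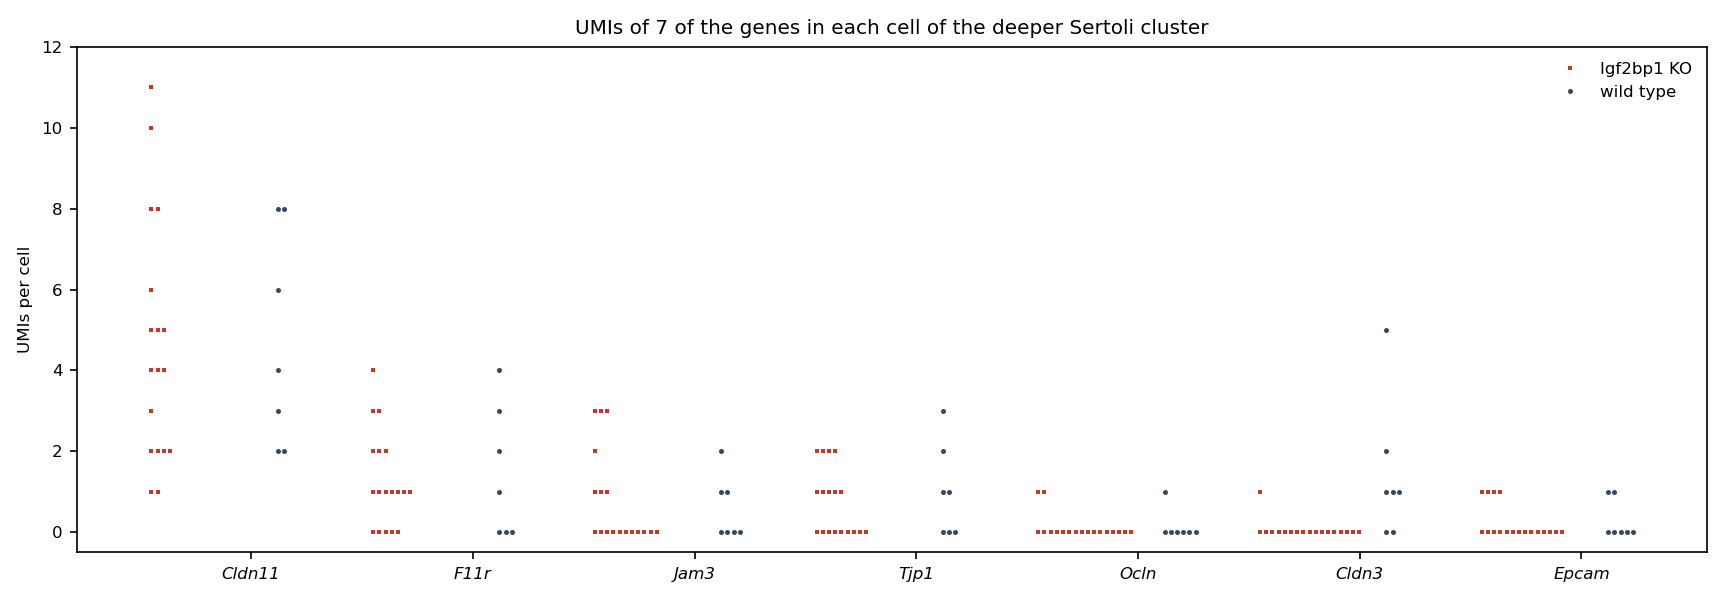
UMIs of 7 of the genes in each cell of the deeper Sertoli cluster, 18 Igf2bp1 KO cells (squares) and 7 wild type cells (circles); points at the same count are set side by side. Cldn11 is above 0 in all 25 cells, and Cldn3 has 1 UMI in the 18 KO cells against 10 UMIs in the 7 wild type cells.

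In late spermatocytes Cldn11 was called higher in KO, with 9 UMIs (1.3 CPM) in KO and 11 UMIs (0.329 CPM) in wild type, log2 1.98 (0.53 to 3.39). Both levels were below free RNA, which itself held more Cldn11 in KO (6.39 CPM) than in wild type (1.76 CPM). The free RNA expected in these cells from their protamine share was 1.02 CPM in KO and 0.214 CPM in wild type, close to the levels seen. Once free RNA was subtracted, or the cell with most UMIs left out, the gene fell under 20 UMIs and could not be called.

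Cldn3, on chromosome 5 (134986214 to 134987472, plus strand), encodes claudin-3, a strand protein that in mice is transient in newly formed barrier junctions. The annotation places Wbscr25 on the opposite strand over it, and the sources used here do not say whether counting used strand, so reads of the 2 genes may not be told apart. Cldn3 stood at 8.67 CPM (4.95 to 14.1; 16 UMIs) in KO Sertoli cells and 16.6 CPM (10.2 to 25.7; 20 UMIs) in wild type Sertoli cells, the highest class in both libraries. The intervals overlapped, and the log2 ratio of -0.94 (-1.98 to 0.08) was not called.

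The 2 Sertoli clusters differed in this. In the shallow Sertoli cluster Cldn3 had 8.7 CPM in KO and 8.87 CPM in wild type. In the deeper cluster it had 1 UMI in 18 KO cells (8.17 CPM; 0.207 to 45.5) and 10 UMIs in 5 of 7 wild type cells (133 CPM; 64 to 245). These intervals did not overlap, but 1 wild type cell gave 5 of the 10 UMIs and the cluster is under the 50 cells set for a ratio. A further 401 KO barcodes (cluster 15) scored best for Sertoli markers, with Leydig markers second, and had no wild type counterpart. They kept no class name because protamine UMIs per barcode were 5.35 times those of the lowest decile, at 4.65 times its depth. They held 1.07 CPM of Cldn3 (0.222 to 3.14) with 91.3 CPM of Cldn11 (80.4 to 103). With these barcodes counted as Sertoli cells the log2 ratio of Cldn3 was -2.02 (-3.01 to -1.04), that of Cldn11 was 0.03, and Cldn3 was called lower. Subtraction of free RNA by protamine share gave -0.95 (-2.12 to 0.17) over the UMIs left, not called, and -1.28 (-2.46 to -0.16) with totals kept, called lower.

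In late spermatocytes Cldn3 stood at 2.31 CPM (1.32 to 3.74; 16 UMIs) in KO and 4.57 CPM (3.88 to 5.36; 153 UMIs) in wild type. The intervals did not overlap, and Cldn3 was called lower at log2 -0.99 (-1.83 to -0.24), the call holding under all 12 other settings tried. The difference lay in cluster 6, log2 -0.96 (-1.94 to -0.10). Cluster 17, with 4 UMIs in KO and 18 UMIs in wild type, gave -0.44 (-2.46 to 1.16). The wild type level was above free RNA (1.17 CPM) and the KO level was not (2.56 CPM). Free RNA itself rested on 2 UMIs in wild type (0.142 to 4.23) and 6 UMIs in KO (0.938 to 5.56). Its interval overlapped that of the cells in both libraries. In wild type, Cldn3 of late spermatocytes lay above that of round spermatids (2.14 CPM) without overlap of intervals, and in KO the neighbouring classes overlapped. The wild type level came from cluster 6 (5.53 CPM), as cluster 17 held 1.99 CPM.

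Cldn5, on chromosome 16 (18776847 to 18778262, plus strand), encodes claudin-5, the main claudin of endothelial tight junctions, also known from mouse Sertoli cells. In named Sertoli cells it had 2.17 CPM in KO and 1.66 CPM in wild type, at free RNA in both (4.26 CPM in KO and 1.76 CPM in wild type). In late spermatocytes it had 2.45 CPM in KO (17 UMIs) and 2.42 CPM in wild type (81 UMIs), log2 0.02 (-0.83 to 0.78). Only the wild type level there was above free RNA, which in wild type rested on 3 UMIs (0.362 to 5.13).

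Most Cldn5 of the KO library, 88.6% of its 746 UMIs, lay in unnamed clusters, against 19.6% of 204 UMIs in wild type. The richest was cluster 23, led by Ly6c1 and Ctla2a, with all 7 endothelial markers found in both libraries and a summed marker level of 398 CPM in 148 KO barcodes and 1704 CPM in 8 wild type barcodes. Cldn5 had 241 CPM there in KO, in 89 of 148 barcodes (60.1%; 51.8 to 68.1), and 1069 CPM in wild type, in 7 of 8 barcodes (87.5%; 47.3 to 99.7). The cluster kept no class name because its protamine UMIs per barcode were 3.88 times those of the lowest decile, at 3.47 times its depth. KO Leydig cells had a Cldn5 UMI in 3 of 369 cells (0.813%), and KO clusters 12, 26 and 30 held 36, 41.2 and 58 CPM with summed endothelial marker levels of 67.8, 77.1 and 74 CPM. Among these KO clusters both the Cldn5 level and the summed endothelial marker level were lowest in cluster 12 and highest in cluster 23, but clusters 26 and 30 went the other way. Over all kept barcodes Cldn5 stood at 7.66 CPM in KO and 1.69 CPM in wild type. Cluster 23 held 148 KO and 8 wild type barcodes, and the part of such barcodes in the difference was not tested.

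**Figure D4:**
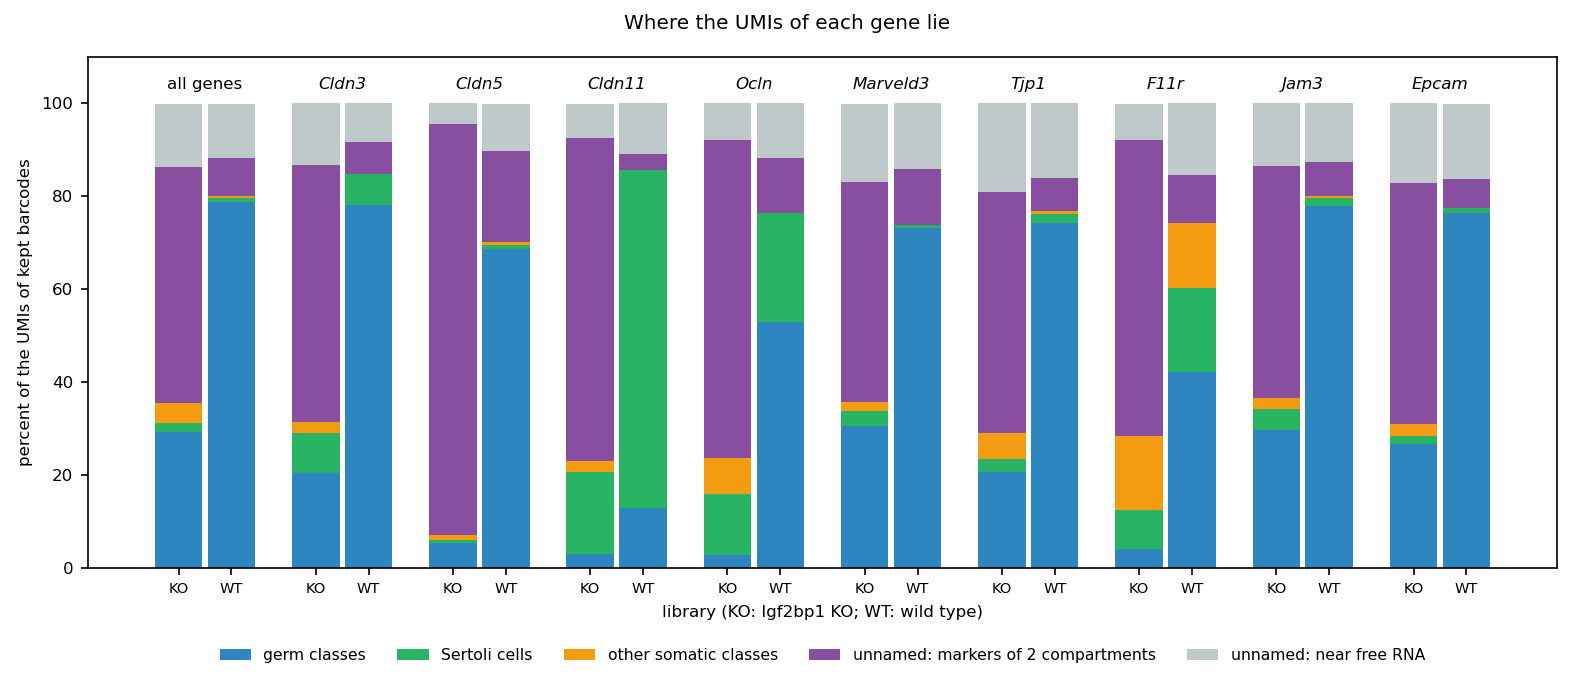
Share of each gene's UMIs that lay in germ classes, Sertoli cells, other somatic classes, unnamed mixed barcodes, and unnamed barcodes near free RNA, for the KO library (left bar of each pair) and the wild type library (right bar). The mixed part takes in all mixed barcodes, whichever rule left them unnamed. Unnamed mixed barcodes hold 50.8% of all KO UMIs and 8.04% of all wild type UMIs, and 88.6% of KO Cldn5 UMIs.

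Ocln, on chromosome 13 (100496507 to 100552718, minus strand), encodes occludin, the first strand protein found, which in mouse testis lines the barrier. It had 38 UMIs in all kept KO barcodes and 17 in all kept wild type barcodes. In Sertoli cells it had 5 UMIs (2.71 CPM; 0.88 to 6.32) in KO and 4 UMIs (3.33 CPM; 0.906 to 8.51) in wild type, with overlapping intervals, and only the wild type level was above free RNA. That contrast is weak, as free RNA itself rested on 3 UMIs in KO (1.28 CPM, 0.263 to 3.73) and 1 UMI in wild type (0.585 CPM, 0.0148 to 3.26). It was found in 2 of 18 KO and 1 of 7 wild type cells of the deeper Sertoli cluster. In KO round spermatids it was found in 0 of 389 cells, which allows a share of up to 0.771% of cells with a UMI. No class reached 20 UMIs, so a difference between the libraries was not detectable at this depth.

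Marveld3, on chromosome 8 (109947914 to 109962203, minus strand), encodes a tetraspan protein related to occludin. In late spermatocytes it had 4 UMIs (0.576 CPM; 0.157 to 1.48) in KO and 62 UMIs (1.85 CPM; 1.42 to 2.38) in wild type. It was called lower there, log2 -1.68 (-3.61 to -0.26), with intervals that overlapped slightly. In round spermatids it had 24 UMIs (2.92 CPM; 1.87 to 4.34) in KO and 25 UMIs (0.938 CPM; 0.607 to 1.39) in wild type. There the intervals did not overlap, and Marveld3 was called higher, log2 1.64 (0.77 to 2.51).

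All 24 KO UMIs of round spermatids lay in cluster 8, which had 3.47 CPM in KO and 1.24 CPM in wild type, and whose round spermatid marker score over all barcodes was 0.02 on the log2 scale. Clustering at a finer resolution put late spermatocytes at 641 KO and 1790 wild type cells and round spermatids at 125 KO and 430 wild type cells. Of cluster 8, 254 of 342 KO and 427 of 636 wild type barcodes were then among late spermatocytes, with 18 of its 24 Marveld3 UMIs in KO and 19 of its 23 in wild type. The log2 ratio of Marveld3 in late spermatocytes was then 0.06 (-0.69 to 0.76), and in round spermatids too few UMIs were left for a ratio.

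Tjp1, on chromosome 7 (65296165 to 65527781, minus strand), encodes ZO-1, the scaffold that links strands to the cytoskeleton. Among germ classes and the whole Sertoli class it was highest in early spermatocytes, at 66.9 CPM (37.5 to 110.4) in KO and 81.4 CPM (60.6 to 107) in wild type. Spermatogonia came next, at 49.3 CPM (35.3 to 67.2) in KO and 53.6 CPM (44.2 to 64.5) in wild type. Late spermatocytes held 12 CPM in KO and 12.9 CPM in wild type, round spermatids 20.3 CPM in KO and 24.3 CPM in wild type, and elongating spermatids 4.72 CPM in KO and 4.45 CPM in wild type. The level thus dropped between early and late spermatocytes, was higher again in round spermatids and was lowest in elongating spermatids, in both libraries. The log2 ratios were -0.12, -0.11, -0.26 and 0.08 in spermatogonia, late spermatocytes, round spermatids and elongating spermatids, and none was called; the interval in round spermatids, -0.51 to -0.01, left out 0. The late spermatocyte and spermatid levels were at or below free RNA. The free RNA expected from the protamine share was less than these levels. It was 4.08 CPM in KO and 3.43 CPM in wild type late spermatocytes, and 4.54 CPM in KO and 4.19 CPM in wild type round spermatids. In Sertoli cells, where ZO-1 protein marks the barrier, Tjp1 had 26 CPM in KO and 29.1 CPM in wild type, at free RNA, which held 25.6 CPM in KO and 28.1 CPM in wild type. The deeper Sertoli cluster held 106 CPM (56.6 to 182) in KO and 93.4 CPM (37.6 to 192) in wild type, above free RNA in both. These levels were higher than those of early spermatocytes, with overlapping intervals in both libraries.

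F11r, on chromosome 1 (171437535 to 171464603, plus strand), encodes JAM-A, an adhesion protein of epithelia, endothelia and leukocytes. It stood at 28.7 CPM (21.5 to 37.6) in KO Sertoli cells and 19.1 CPM (12.1 to 28.7) in wild type Sertoli cells. The intervals overlapped, and the log2 ratio of 0.59 (-0.14 to 1.36) was not called. Subtraction of free RNA by protamine share gave 0.55 (-0.24 to 1.39) with totals kept, not called, and 0.89 (0.10 to 1.72), a call of higher, over the UMIs left. The UMIs left were 19.3% in KO and 24.3% in wild type, which alone moves every Sertoli ratio by 0.33 on the log2 scale. Leydig cells held 34.1 CPM in KO and 36.4 CPM in wild type, and KO macrophages held 40.7 CPM (22.2 to 68.3), with free RNA at 5.11 CPM in KO and 3.51 CPM in wild type. The deeper Sertoli cluster held more, 188 CPM in KO (23 UMIs in 13 of 18 cells) and 133 CPM in wild type (10 UMIs in 4 of 7 cells). Late spermatocytes, round spermatids and elongating spermatids lay under free RNA, at 0.72, 0.487 and 0.651 CPM in KO and 0.478, 0.3 and 0.218 CPM in wild type. Among spermatogonia, the cluster with Uchl1 among its leading genes held 22.9 CPM in 15 KO cells and 54.1 CPM in 28 wild type cells, from 3 UMIs in KO and 16 UMIs in wild type.

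Jam3, on chromosome 9 (27097384 to 27155421, minus strand), encodes JAM-C, which in mice is needed for the polarity of spermatids and binds JAM-B on Sertoli cells. The annotation places Gm48796 on the opposite strand over it, with the same limit on strand as for Cldn3. Jam3 stood at 29.6 CPM in KO spermatogonia and 28.9 CPM in wild type spermatogonia, and at 35.7 CPM (15.4 to 70.3) in KO and 46.3 CPM (31 to 66.5) in wild type early spermatocytes. Later it stood at 15 CPM in KO and 17.1 CPM in wild type late spermatocytes, at 13 CPM in KO and 13.4 CPM in wild type round spermatids, and at 8.95 CPM in KO and 8.75 CPM in wild type elongating spermatids. After early spermatocytes the class level was lower at each later stage, but no KO stage was apart from the next, and in wild type each was. The clusters did not all follow this order. In wild type, late spermatocyte cluster 17 (interval 8.48 to 12.8 CPM) lay below round spermatid cluster 8 (15.2 CPM, 13.5 to 17.1). The other late spermatocyte cluster, number 6, lay above cluster 8 at 19.5 CPM (17.8 to 21.3). In KO the intervals of clusters 17 and 8 overlapped. Most barcodes of cluster 8 were placed among late spermatocytes by the finer clustering. The libraries overlapped at every stage. Free RNA held 9.79 CPM in KO and 18.1 CPM in wild type, so that from late spermatocytes on no wild type level was above it. The free RNA expected from the protamine share was less than the levels seen. It was 1.56 CPM in KO and 2.21 CPM in wild type late spermatocytes, and 1.74 CPM in KO and 2.7 CPM in wild type round spermatids. In Sertoli cells Jam3 had 28.7 CPM in KO and 25.8 CPM in wild type. The deeper Sertoli cluster held 114 CPM in KO, from 14 UMIs, and 53.4 CPM in wild type, from 4 UMIs. The log2 ratios over the classes ran from -0.19 (-0.50 to 0.12) in late spermatocytes to 0.16 (-0.51 to 0.84) in Sertoli cells, and none was called. Subtraction of free RNA by protamine share put the Sertoli ratio at 0.78 (-0.14 to 1.79) with totals kept, not called, and at 1.12 (0.20 to 2.12), a call of higher, over the UMIs left, which includes the same move of every ratio as for F11r.

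The partner gene Jam2, from the list of other MARVEL and junction immunoglobulin proteins, encodes JAM-B. It had 12.8 CPM in KO and 27.7 CPM in wild type late spermatocytes (log2 -1.11, -1.44 to -0.80) and 11.1 CPM in KO and 25.5 CPM in wild type round spermatids (log2 -1.20, -1.54 to -0.89), and it was called lower in both classes. Free RNA held 14.1 CPM of Jam2 in KO and 27.5 CPM in wild type, so neither level was above free RNA. Its binding partner Jam3 was not called in those classes.

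Epcam, on chromosome 17 (87635979 to 87651129, plus strand), encodes the epithelial cell adhesion molecule. Its promoter window is shown because Epcam carries most of the UMIs behind the differences above. The window is chr17:87635729-87636028 in GRCm38.p6 from RefSeq, on the gene's strand, with the GC box core GGGCGG and the E-box CAGGTG in capitals where they occur on either strand.
Epcam: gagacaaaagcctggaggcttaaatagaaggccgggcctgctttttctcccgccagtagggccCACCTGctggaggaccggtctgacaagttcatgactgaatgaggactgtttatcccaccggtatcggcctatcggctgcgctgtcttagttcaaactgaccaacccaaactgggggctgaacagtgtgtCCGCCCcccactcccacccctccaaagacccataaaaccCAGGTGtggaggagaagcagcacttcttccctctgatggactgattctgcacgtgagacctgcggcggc

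Both strands of the 32851 promoter windows of the table were searched for the core of the GC box, GGGCGG, and for the sequence CAGGTG, which is an E-box. Also searched were the TATA box, spelled TATAAA, and the core of the motif bound by SOX factors, spelled AACAAT. No match overlapped another in the windows printed. The Epcam window held CAGGTG 2 times and GGGCGG 1 time, and the Cldn11 window held GGGCGG 1 time; CAGGTG occurs in 20.2% of all windows and GGGCGG in 35.7%. The TATA box was found in 13.6% of all windows and the SOX core in 10.7%, and both printed windows lacked these letters. A window was found for 7 of the 9 genes, with GC contents from 57% for Epcam to 68% for 1 of the 2 Ocln windows, against a median of 52.7% over all windows.

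Epcam was highest in spermatogonia, at 85.1 CPM (66.2 to 108) in KO and 126 CPM (112 to 142) in wild type, and in early spermatocytes, at 71.4 CPM (40.8 to 116) in KO and 110.2 CPM (85.7 to 139) in wild type. Spermatogonia and early spermatocytes were the classes above free RNA in both libraries. The wild type level in spermatogonia lay above the KO level without overlap, but the log2 ratio of -0.57 (-0.97 to -0.18) was 1.48-fold and so not called. A UMI was found in 39 of 106 KO spermatogonia (36.8%; 27.6 to 46.7) and in 112 of 190 wild type spermatogonia (58.9%; 51.6 to 66), at median depths of 6444 UMIs in KO and 8149 UMIs in wild type. Thinned to 1000 UMIs per cell the shares were 6.6% in KO and 16.4% in wild type. In KO Leydig cells, which do not form an epithelium, it was found in 18 of 369 cells (4.88%) at 6059 UMIs, and in 0 of 43 wild type Leydig cells at 6969 UMIs, which allows up to 6.98%.

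Within spermatogonia the difference was not even. The cluster led by P3h3 and Hist1h2ap had 101 CPM in 65 KO cells and 213 CPM in 94 wild type cells, log2 -1.07 (-1.56 to -0.60). The cluster led by Crabp1, with Stra8 and Dazl among its leading genes, had 34.2 CPM in 26 KO cells and 86.9 CPM in 68 wild type cells, log2 -1.35 (-2.83 to -0.17). The cluster led by D10Wsu102e, with Uchl1 and Stra8 among its leading genes, had 91.6 CPM in 15 KO cells and 71 CPM in 28 wild type cells, with overlapping intervals and log2 0.37 (-0.79 to 1.46). With the clusters of at least 20 cells in each library weighted equally the log2 ratio over spermatogonia was -1.15 (-1.55 to -0.76), and without the cell with most UMIs it was -0.63 (-1.04 to -0.23); both passed the 1.5-fold limit.

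In late spermatocytes Epcam had 206 UMIs (29.7 CPM; 25.8 to 34) in KO and 1895 UMIs (56.6 CPM; 54.1 to 59.2) in wild type. The intervals were far apart, and Epcam was called lower at log2 -0.93 (-1.15 to -0.72). It was found in 34.7% of KO cells and 61.1% of wild type cells, at median depths of 14652 UMIs in KO and 19342 UMIs in wild type, and in 2.39% of KO and 4.73% of wild type cells after thinning. Both clusters of the class showed it: cluster 6, with Aurka leading, had 24.3 CPM in KO and 53.1 CPM in wild type, and cluster 17, with Piwil1 among its leading genes, had 38 CPM in KO and 66.2 CPM in wild type. The log2 ratios in the 2 clusters were -1.13 (-1.44 to -0.84) and -0.80 (-1.11 to -0.50).

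In round spermatids Epcam stood at 19.2 CPM (16.3 to 22.5) in KO and 33 CPM (30.8 to 35.2) in wild type, and it was called lower at log2 -0.78 (-1.03 to -0.53). Cluster 8 carried the difference, with 16.5 CPM in KO and 30.8 CPM in wild type, log2 -0.90 (-1.20 to -0.61). Its round spermatid marker score was only 0.02 on the log2 scale. The finer clustering put 254 of its 342 KO and 427 of its 636 wild type barcodes among late spermatocytes. Cluster 19, with a score of 0.64, had 33.8 CPM in KO and 37.9 CPM in wild type, with overlapping intervals and log2 -0.17 (-0.66 to 0.29). The call was lost when the 2 clusters were weighted equally (-0.45, -0.70 to -0.20) and at the finer clustering (-0.53, -0.89 to -0.17).

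In elongating spermatids Epcam had 22 CPM (19.4 to 24.7) in KO and 28.5 CPM (26.7 to 30.5) in wild type, log2 -0.38 (-0.58 to -0.18), under the 1.5-fold limit. Cluster 21, with Hemgn and Actrt3 leading, held 65.2 CPM in KO and 79.1 CPM in wild type, above clusters 4 and 10 without overlap in both libraries. Cluster 4 had 16.9 CPM in KO and 20 CPM in wild type, and cluster 10 had 17.4 CPM in both libraries. Epcam was thus not lower at each later stage: cluster 21 stood above the higher late spermatocyte cluster, number 17 (38 CPM in KO, 66.2 CPM in wild type), without overlap in KO and with a slight overlap in wild type.

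**Figure D5:**
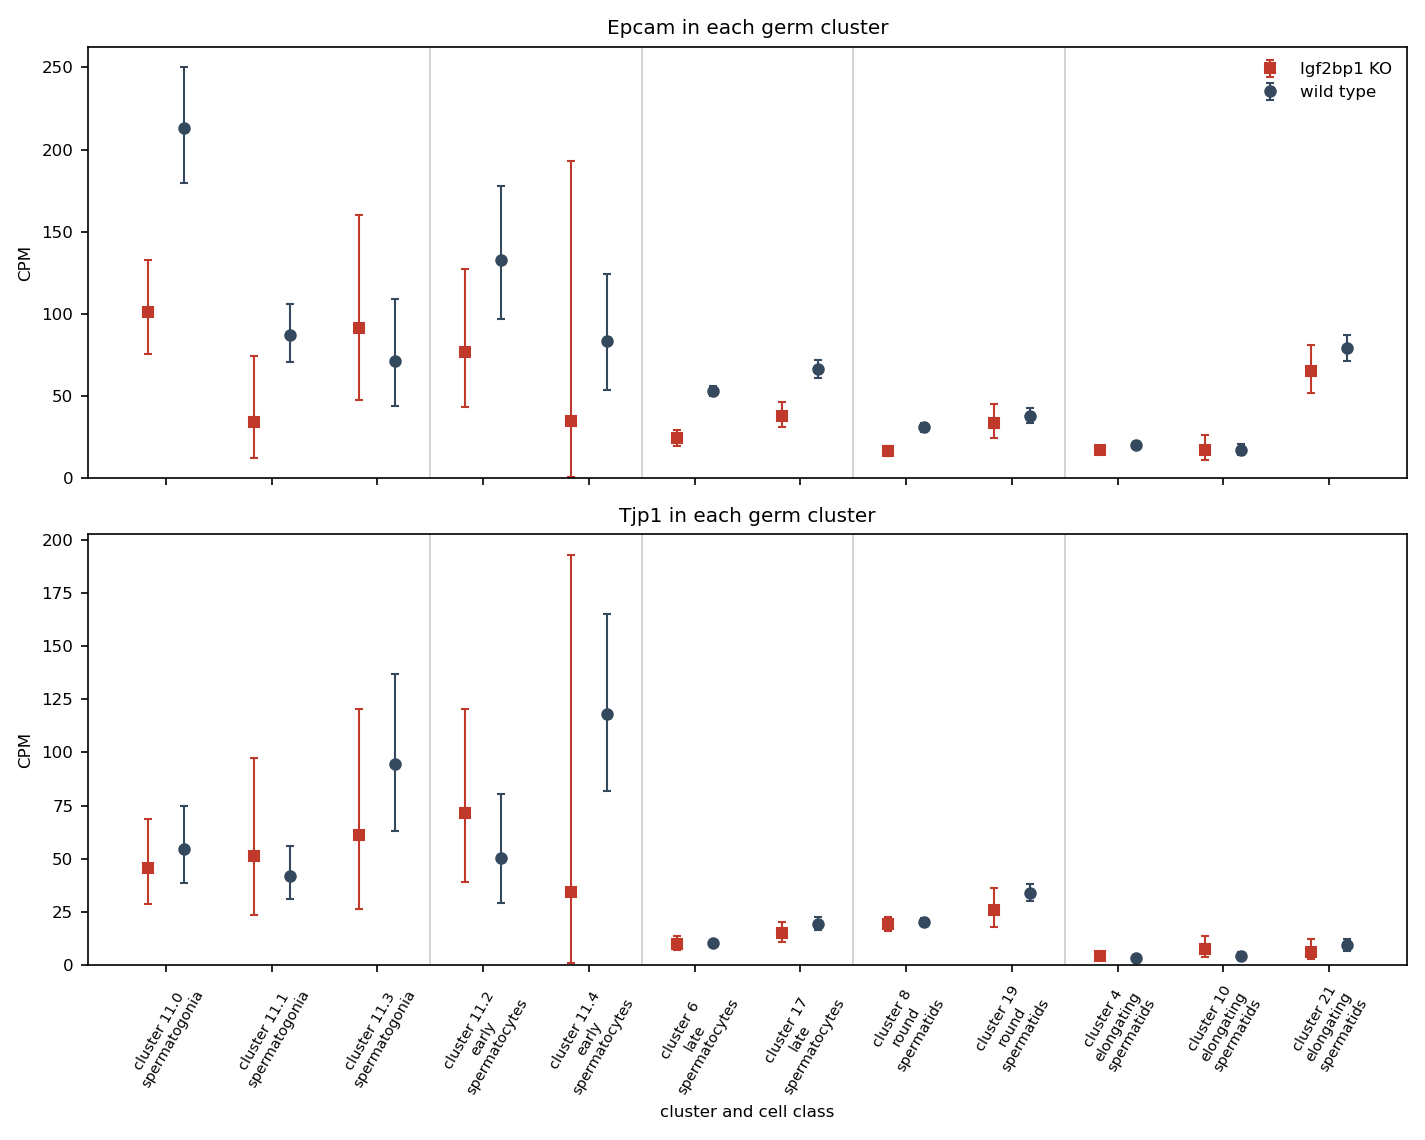
Epcam (top) and Tjp1 (bottom) in CPM in each germ cell cluster, grouped by class, in the KO library (squares) and the wild type library (circles) with exact Poisson 95% intervals. Epcam is lower in KO, with intervals apart, in the spermatogonial cluster led by P3h3 and in clusters 6, 17 and 8, and is close to equal in clusters 19 and 10, while the Tjp1 intervals of the libraries overlap in all 12 clusters.

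The free RNA differed for Epcam too. The lowest decile of barcodes held 36.2 CPM (28.9 to 44.8) in KO and 56.2 CPM (45.5 to 68.6) in wild type, and late spermatocytes, round spermatids and elongating spermatids were not above it in either library. Protamine and transition protein UMIs of late spermatocytes were 16% of the free RNA share in KO and 12.2% in wild type, which would bring 5.78 CPM of Epcam in KO and 6.86 CPM in wild type. With that amount subtracted the log2 ratio was -0.99 (-1.23 to -0.76) over the UMIs left and -1.06 (-1.30 to -0.83) with totals kept in late spermatocytes, and -0.90 (-1.21 to -0.60) over the UMIs left and -0.94 (-1.26 to -0.65) with totals kept in round spermatids. In Sertoli cells Epcam had 24.9 CPM in KO and 49.9 CPM in wild type and was called lower (log2 interval -1.59 to -0.42), but both levels were at or below free RNA, whose share would bring 31.4 CPM in KO and 44.6 CPM in wild type. In the deeper Sertoli cluster it had 4 UMIs in 18 KO cells and 2 UMIs in 7 wild type cells.

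Other genes of the same junctions were read from lists. Of 27 other claudins and claudin-like genes, 3 to 10 per class had enough UMIs: Cldnd1 was lower in KO late spermatocytes (21.3 CPM in KO against 32.8 CPM in wild type), Tmem114 and Cldn10 were higher in KO round spermatids, and Cldn34b1 was higher in KO Sertoli cells (14.1 CPM in KO against 4.16 CPM in wild type). Of these, only Cldn10, with 1.34 CPM in KO and 0.45 CPM in wild type, was above free RNA, where it was at 0 in both libraries. With free RNA at 0 any UMI passes that rule, so it cannot set Cldn10 apart. A count of 0 in the wild type lowest decile allows up to 2.16 CPM. Of 22 other scaffolds, 14 to 18 per class were measured, and called were Ybx3, lower in KO spermatogonia (681 CPM in KO against 1069.7 CPM in wild type), Pard3, higher in KO elongating spermatids (1.87 CPM in KO against 0.747 CPM in wild type), and Patj, higher in KO Sertoli cells (41.7 CPM in KO against 24.9 CPM in wild type), all at or below free RNA. Among the 9 other MARVEL and junction immunoglobulin proteins, Cxadr, the coxsackievirus and adenovirus receptor, was higher in KO spermatogonia (21 CPM in KO against 10.4 CPM in wild type, log2 1.01, 0.00 to 1.99, the lower end just above 0) and Igsf11 was higher in KO Sertoli cells (68.8 CPM in KO against 44.1 CPM in wild type, below free RNA).

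Of 26 adherens junction and ectoplasmic specialization genes, 16 to 21 per class were measured. Ctnnb1, which encodes beta-catenin, the link from cadherins to actin, was higher in KO spermatogonia (122 CPM in KO against 65.5 CPM in wild type, log2 0.90, 0.51 to 1.28), in KO Sertoli cells (29.3 CPM in KO against 15 CPM in wild type) and in KO elongating spermatids (2.77 CPM in KO against 1.43 CPM in wild type). Itgb1, the beta-1 integrin gene, was higher in the same classes, at 92.5 CPM in KO against 61.2 CPM in wild type, 19.5 CPM in KO against 7.48 CPM in wild type and 1.14 CPM in KO against 0.187 CPM in wild type, and also in late spermatocytes (1.73 CPM in KO against 0.628 CPM in wild type). For both genes the spermatogonia and Sertoli levels were above free RNA and the others were not. Espn, which encodes the actin bundler espin, was lower in KO late spermatocytes (14 CPM in KO against 21.3 CPM in wild type), above free RNA in wild type and not in KO.

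Of 10 EpCAM partners and membrane protease genes, 3 to 5 per class were measured. Cd81, a tetraspanin gene, was higher in KO spermatogonia (91.3 CPM in KO against 48.4 CPM in wild type, log2 0.92, 0.46 to 1.36), late spermatocytes (10.1 CPM in KO against 1.85 CPM in wild type), round spermatids (9 CPM in KO against 2.55 CPM in wild type) and elongating spermatids (8.14 CPM in KO against 3.21 CPM in wild type), and free RNA held 29.8 CPM in KO and 8.2 CPM in wild type. Spint1, a membrane protease inhibitor gene, was lower in KO spermatogonia, at 7.4 CPM in KO against 19.5 CPM in wild type (log2 -1.39, -2.92 to -0.15), from 6 UMIs in KO and 41 UMIs in wild type. Over the 5 lists together, 6 of 44 genes measured in spermatogonia were called in either direction (13.6%, against 13.7% of all genes), 5 of 56 in late spermatocytes (8.93% against 8.41%), 4 of 52 in round spermatids (7.69% against 7.1%), 4 of 47 in elongating spermatids (8.51% against 7.05%) and 5 of 40 in Sertoli cells (12.5% against 5.89%). These shares were near those of all genes in the germ classes, and that in Sertoli cells rests on 5 genes. Of the 25 list medians, 1 lay beyond 0.27 from 0 on the log2 scale, the 3 MARVEL and immunoglobulin genes measured in round spermatids at -1.11, beside 0.02 for all genes.

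The genes most alike to each member in level were found over 16 points, the class sums of both libraries with at least 50 cells, by Pearson correlation of log2(CPM + 10). The points share libraries, depth and free RNA, and the values are a description. For Cldn11 they were Tsx (0.979), Rhox8 (0.978) and Defb45 (0.973), and for Epcam Pnldc1 (0.917), Zbed5 (0.897) and Tmem59l (0.892). For Tjp1 they were Ptk2 (0.947), Tex15 (0.933) and Camta1 (0.931), for F11r Wsb2 (0.948), Acot13 (0.944) and Clybl (0.935), and for Jam3 Mast2 (0.856), Serac1 (0.837) and Sestd1 (0.836). The likeness was closest for Cldn11 among these members. Cldn3, Cldn5, Ocln and Marveld3 had 311, 194, 22 and 139 UMIs over all points, and their nearest genes were Foxq1, Alas2 and Derl3 for Cldn3, Park2, Lysmd1 and Zdhhc17 for Cldn5, Tmem114, Ramp1 and Akr1c13 for Ocln, and Fam19a4, Gchfr and Chac1 for Marveld3.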

How the data were processed

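Per the labels' protocols, testis was digested with enzymes, strained and loaded on a 10x chip. The submitters' processing notes name Cell Ranger 2.2.0, STAR and mm10, while 3.1.0 is the software version per the file headers. The files the authors deposited give whole-number UMI counts for each gene and barcode, with no normalization. The sources used here do not say how the authors called cells.

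Filtering removed barcodes under 500 UMIs, under 250 genes or over 20% mitochondrial UMIs and left 17703 KO and 17002 wild type barcodes; 106 barcode sequences occur in both libraries. Counts scaled to 10000 per cell were clustered over 1992 variable genes, the members and listed junction genes left out (scanpy 1.11.5, 30 components, 15 neighbours, Leiden resolution 1, leidenalg 0.10.2), which gave 35 clusters, named from marker lists. The limits used in naming, and the subtraction of free RNA by protamine share, were chosen after the data had been seen. No doublet caller was run, and the mixed clusters stayed unnamed. Raw counts were summed per class and library. Intervals are exact (scipy 1.17.1). The code was tested on simulated data.

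The members and lists were chosen with earlier results of these data known. Named genes are the members, list genes called in a class, and the 3 genes most like each member among those with at least 200 UMIs. Scaling alternatives used factors from edgeR 4.0.16 (TMM and median of ratios); no edgeR test was run. Coordinates are from GENCODE vM21 on GRCm38. Settings tried are given in the closing section.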

Additional observations from a re-analysis of the deposited data

How the results depend on the processing

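With 1 library per genotype no library could be left out. No paired analysis was possible because each genotype has 1 library and the labels carry no replicate numbers. Of 132 recomputed counts of called genes, 101 stayed within 1.5 times the value reported. The share of all genes called under each other setting is not given here. The counts below therefore show how the calls depend on the setting and do not set the members or listed genes apart from other genes. Members called in spermatogonia were 0 as reported and 1 under TMM scaling, median-of-ratios scaling, subtraction of free RNA by protamine share over the UMIs left (chosen after seeing the data; 0 with totals kept), without the cell with most UMIs and with equal cluster weights, Epcam in each case, and 2 when classes were set by each cell's own markers. With own markers the counts were 2 in late spermatocytes (4 as reported), 1 in elongating spermatids (0) and 2 in Sertoli cells (1). In round spermatids (2) they were 0 at the finer clustering and 1 with a minimum of 50 UMIs. In elongating spermatids they were 2 with mixed clusters named and 1 with no minimum of UMIs. In Sertoli cells they were 2 with free RNA subtracted by protamine share over the UMIs left, with mixed clusters named and with nothing left out of the variable genes. The listed junction genes called were 6, 5, 4, 4 and 5 in spermatogonia, late spermatocytes, round spermatids, elongating spermatids and Sertoli cells. They were 12, 12 and 9 with own markers in spermatogonia, elongating spermatids and Sertoli cells, 3 and 8 with equal cluster weights in late spermatocytes and round spermatids, 9 in elongating spermatids both at the finer clustering and with nothing left out, 12 and 12 with mixed clusters named in elongating spermatids and Sertoli cells, 7 with no minimum in elongating spermatids, 10 and 8 with free RNA subtracted by protamine share and totals kept in spermatogonia and late spermatocytes, and 2, 2 and 3 with a minimum of 50 UMIs in round spermatids, elongating spermatids and Sertoli cells. The 1 ratio that reversed was Marveld3 in late spermatocytes, 0.06 at the finer clustering; the causes of these shifts were not tested. Under the stricter barcode filter 39 wild type Sertoli cells were left, too few for a ratio, and equal weights could not be had for Sertoli cells. Scaling moved all ratios of a class by -0.02 to -0.10 on the log2 scale. Depth leaves Ocln without a ratio in any class and Cldn5, Cldn11 and Marveld3 with a ratio in 2 of 5.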
